A study of Rattus norvegicus with 6 samples.

Results

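Enzymes of the tricarboxylic acid (TCA) cycle were examined in RNA-seq libraries of cells labelled as rat fibroblast-like synoviocytes (RA-FLS), the fibroblasts of the joint lining tissue. Of the markers of that cell type, Thy1, Pdpn and Prg4 were near 0 counts in both groups. Others, such as Col1a1 and Pdgfra, were high with TNF-α and much lower with EMO, as given with the libraries below. The label is therefore only partly borne out by the data. The enzymes were chosen by name from 9 genes, Cs, Idh3a, Idh3b, Idh3g, Ogdh, Dlst, Dld, Suclg1 and Mdh2. Of the 9 names, 8 matched a row among the 34156 genes of the count table. No row carried the name Ogdh, and that gene is not analysed here. All 8 matched genes passed the filter on low counts and were among the 13614 genes tested. The study asked how emodin (EMO), an anthraquinone found in rhubarb root, acts on inflamed synoviocytes. The cells were wild type, labelled with the disease state rheumatoid arthritis, and bought as a stock. In the TNF-α group (n = 3) the cells received TNF-α, the cytokine used to model inflammation, at 10 ng/ml, and in the TNF-α+EMO group (n = 3) the same TNF-α with EMO at 80 μmol/L. Both groups therefore carried TNF-α and no untreated cells were compared. The labels give day 5 as the time, whereas the study's methods give 24 h.

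The TCA cycle runs in the mitochondrial matrix. It joins acetyl groups from pyruvate or fatty acids to oxaloacetate, oxidises the resulting citrate in steps back to oxaloacetate, and passes the electrons to the respiratory chain. All of its enzymes are encoded in the nucleus and imported. Intermediates also leave the cycle for lipid and amino acid synthesis and are refilled from glutamine and pyruvate, and in activated immune cells citrate, succinate and itaconate are known as metabolic signals. Of the genes examined here, Cs encodes citrate synthase, which makes citrate. Idh3a, Idh3b and Idh3g encode the α, β and γ subunits of the NAD-dependent isocitrate dehydrogenase, a main control point. Dlst and Dld encode the E2 and E3 parts of the 2-oxoglutarate dehydrogenase complex, Suclg1 the α subunit of succinyl-CoA ligase, and Mdh2 the mitochondrial malate dehydrogenase, which remakes oxaloacetate.

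With EMO, 7 of the 8 cycle genes were higher than with TNF-α alone, none was lower and Idh3a did not pass the test. Suclg1 rose the most, 2.12-fold, and Dld followed at 1.90-fold, while Dlst rose the least of the 7 genes called, 1.30-fold. The 7 calls stand beside a background in which 80.9% of all genes tested passed the same rule, an adjusted p under 0.05 in edgeR's quasi-likelihood test. Of all genes tested, 39.4% were called higher and 41.4% called lower. The median log2 fold change (TNF-α+EMO over TNF-α) was 0.50 over the 8 genes and -0.01 over all genes tested. With the added demand of a change beyond 2-fold, 1 cycle gene was called, Suclg1, where 47.3% of all genes tested were called, 19.5% higher and 27.8% lower. The groups did not overlap for 7 of the 8 genes, all higher with EMO, where 82.9% of all genes tested did not overlap, 40.3% higher and 42.5% lower. Suclg1 did not reach 2-fold when scaling used library totals only (log2 fold change 0.97) or when TNF-α replicate 2 was left out (0.99). The counts of the 8 genes together made up 1071 ± 38.0 CPM (counts scaled to library size, SD, n = 3) with TNF-α and 1554 ± 26.4 with EMO, a ratio of 1.45.

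Each library held between 16813322 and 17794455 counts, and the members of each group correlated with each other at 0.988 to 0.992 across genes, against 0.774 to 0.787 between groups. TNF-α+EMO replicate 3 stood apart from the other two libraries of its group, with a chi-square per gene of 25.0 and 16.01 against 6.66 for the other pair and 4.75 to 5.87 among the TNF-α libraries. Without that library the log2 fold changes of the 8 genes lay between -0.01 (Idh3a) and 1.09 (Suclg1) and the same 7 were called. The study's methods call the libraries of a condition biological replicates, but neither they nor the labels say that these came from separate cultures. The p-values therefore measure only the spread between these samples, part of which may be technical. Of the fibroblast markers listed, 8 could be tested and all 8 were lower with EMO (median log2 fold change -5.96, or -5.31 with Fap, at 0 counts with EMO, set to its bound). Their summed normalised counts lay between 210475 and 231249 with TNF-α and between 35277 and 38038 with EMO. Vcam1 was the lowest of them (-8.02) and the intermediate filament gene Vim the least changed (-0.92). Further markers, named after their values were seen, were also high with TNF-α. Mean normalised counts went from 111181 to 3709 for Col1a1 and from 20844 to 216 for Pdgfra. Pdgfrb went from 3035 to 139 and Cdh11 from 2968 to 40.3. Prg4, the lubricin gene of the synovial lining, Thy1, a marker of sublining fibroblasts, and Pdpn, a general synovial fibroblast marker, had at most 7 counts in any library of either group. The summed normalised counts of macrophage markers were between 150.02 and 174 with TNF-α and between 257 and 282 with EMO. Nearly all of this sum was Cd68 (153 ± 14.7 and then 257 ± 11.3). Itgam had 1, 0 and 0 counts with TNF-α and 12, 10 and 14 with EMO. Csf1r, Lyz2 and Adgre1 had at most 5 counts with TNF-α and at most 2 with EMO, Ptprc at most 1 in any library, and Cd163 had 0 in every library. The other marker sums were also carried mainly by 1 gene each. The epithelial sum (9949.5 to 10807 and then 1968 to 2304) was almost wholly Krt8, with Epcam at 0 and Cdh1, Krt18 and Krt19 at 8 counts or fewer in every library. The chondrocyte sum (462 to 545 and then 6.14 to 8.25) was mainly Sox9, with Acan at 0, Comp at 8 to 15 counts with TNF-α and 0 with EMO, and Col2a1 at 0 with TNF-α and 2 to 5 with EMO. The endothelial sum (69.2 to 76.5 and then 13.2 to 21.7) was mainly Vwf with TNF-α (54, 56 and 54 counts, then 9, 2 and 2), with Kdr at 0. T cell markers summed to at most 4.90 in any library, with Cd3d at 0. The share of all counts that came from genes of the mitochondrial genome was 3.35 to 3.58% with TNF-α and 0.363 to 0.399% with EMO. The part of these shifts in the results on the cycle genes was not tested. In bulk RNA, fewer cells of a type and less RNA per cell cannot be told apart.

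The promoters of the cycle genes are described by their letters, and a link between these and the changes with EMO was not tested. A window from 250 bases before to 50 bases after the start site was found in the RefSeq table (build GRCr8) for 7 of the 8 genes, with Idh3a as the exception. Of 5 motifs searched on both strands, the ETS core CCGGAAG, the letters bound by GABP and related factors, was found in 4 of the 7 windows and in 8.75% of all 33469 windows of the same length. Those 4 windows held 50.3% (Idh3b), 60.7% (Mdh2), 62.3% (Dlst) and 63% (Idh3g) G and C, against a median of 51.7% over all windows. The shares were not adjusted for this, and all windows were counted whether or not their gene was among those tested here. The cAMP response element TGACGTCA was found in 1 of the 7 windows, that of Mdh2, and in 1.83% of all windows. The E box CACGTG (6.42% of all windows), the NRF1 core GCATGCGC (2.47%) and the ERR site TCAAGGTCA (0.433%) were found in none of the 7. The windows of Cs, Dld and Suclg1 held none of the 5 motifs as spelled here. Only these exact letters were searched, so variants of a site were not counted. The Dld window, for one, held gcacgcgc, which differs from the NRF1 core in 1 letter. None of the 5 motifs overlapped another in these windows. Each motif is printed below in capitals with its surroundings. In Idh3b and Dlst it is the reverse complement of the ETS core, CTTCCGG, that reads along the gene. These matches describe letters, not bound sites.
Idh3b, ETS, chr3:137939984-137940042, minus strand: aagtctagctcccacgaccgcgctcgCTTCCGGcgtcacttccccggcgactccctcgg
Idh3g, ETS, chrX:156675544-156675602, minus strand: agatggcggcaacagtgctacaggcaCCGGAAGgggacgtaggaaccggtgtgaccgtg
Dlst, ETS, chr6:110489660-110489718, plus strand: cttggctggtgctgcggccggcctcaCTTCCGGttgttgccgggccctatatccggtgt
Mdh2, ETS, chr12:26544051-26544091, minus strand: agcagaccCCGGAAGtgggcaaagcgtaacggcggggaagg
Mdh2, CRE, chr12:26543925-26543984, minus strand: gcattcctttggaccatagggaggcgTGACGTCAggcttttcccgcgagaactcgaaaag

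Citrate synthase, the entry step, was encoded by Cs (ENSRNOG00000023520, Rnor_6.0 chromosome 7, 2752680 to 2778963). Its normalised counts, which are counts divided by each library's relative effective size, were 2686, 2719.7 and 2781 with TNF-α and 3979, 3993 and 4025 with EMO. The replicates of each group lay close together and the groups were far apart. The mean went from 2729 ± 48.5 to 3999 ± 23.3 (SD, n = 3). The log2 fold change was 0.55 (SE 0.05, 95% interval 0.43 to 0.67) with an adjusted p of 2.61e-06 in edgeR's quasi-likelihood test. Among the genes listed in the table, the only one whose span overlapped Cs was a small nucleolar RNA at 0 counts, and the other 7 cycle genes overlapped no listed gene.

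**Figure D1:**
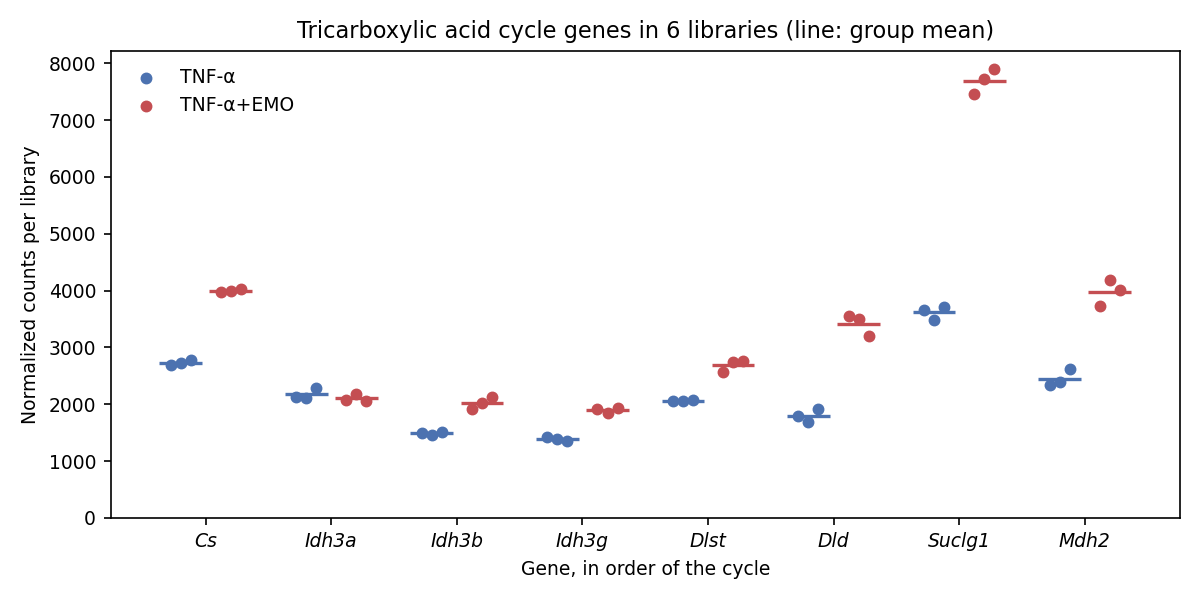
Normalised counts of the 8 cycle genes in each of the 6 libraries, with the TNF-α and TNF-α+EMO groups side by side. Points are libraries and lines the group means. The groups are apart for 7 genes, most clearly for Suclg1 (3621 against 7688), and interleave for Idh3a (2174 against 2105).

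The subunits of the NAD-dependent isocitrate dehydrogenase did not move together. Idh3a (ENSRNOG00000010277, chromosome 8, 59164572 to 59183908) encodes the catalytic α subunit, and its normalised counts were 2128, 2105 and 2289 with TNF-α and 2080.4, 2181 and 2055 with EMO. The libraries of the groups interleaved, so that no separation could be seen. The log2 fold change was -0.05 (SE 0.06, 95% interval -0.18 to 0.09, adjusted p = 0.499 in edgeR's quasi-likelihood test), a range that excludes the rises of the other 2 subunits. With scaling by library totals only, which moved the median of all genes by -0.11, Idh3a came out lower (log2 fold change -0.16, adjusted p = 0.0419). Idh3b (ENSRNOG00000007316, chromosome 3, 122808564 to 122813583) encodes the β subunit. It had 1484, 1456 and 1514 normalised counts with TNF-α and 1907, 2024 and 2129.9 with EMO. All EMO libraries were above all TNF-α libraries, and the rise was 1.36-fold (log2 fold change 0.44, SE 0.06, adjusted p = 6.31e-05). Idh3g (ENSRNOG00000055572, X chromosome, 156999826 to 157008733) encodes the γ subunit, and its 1426, 1393.5 and 1352 normalised counts became 1922, 1839.8 and 1940.5. The groups again did not overlap, with a 1.37-fold rise (log2 fold change 0.45, SE 0.06, adjusted p = 3.54e-05). The windows with the ETS core above include those of Idh3b and Idh3g. No window was found for Idh3a, so the 3 subunits cannot be compared in this.

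The balance between the subunits was compared inside each library, as reads per kilobase of one gene over those of the other, which does not depend on library scaling. Idh3a over Idh3g was 0.816, 0.826 and 0.926 with TNF-α and 0.592, 0.648 and 0.579 with EMO, a difference of means of -0.50 on the log2 scale. Idh3a over Idh3b was 0.878, 0.885 and 0.926 and then 0.668, 0.660 and 0.591, a difference of -0.49. All libraries with EMO lay below all libraries with TNF-α for both ratios. Idh3b over Idh3g showed no such shift, with a mean of 0.954 ± 0.0397 against 0.950 ± 0.0549, overlapping groups and a two-sided exact permutation p of 1. With 3 libraries a group, the smallest p that the exact permutation test can give is 0.1, and 9 of the 10 ratios compared reached it (adjusted p = 0.111 over the 10). None could therefore pass 0.05 in this design. Among single genes tested, 82.9% had groups that did not overlap, and the share over ratios of other gene pairs was not computed.

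For the 2-oxoglutarate dehydrogenase complex, Dlst (ENSRNOG00000005061, chromosome 6, 108936664 to 108959803) encodes the E2 core that carries the lipoyl arm. Its normalised counts were 2051, 2049.8 and 2074 with TNF-α and 2559, 2737 and 2754 with EMO. The TNF-α libraries were almost identical, and all EMO libraries were above them (log2 fold change 0.38, SE 0.06, 95% interval 0.25 to 0.51, adjusted p = 1.01e-04 in edgeR's quasi-likelihood test). Dld (ENSRNOG00000006364, chromosome 6, 50597677 to 50618694) encodes the E3 dehydrogenase, which the pyruvate, branched-chain and glycine complexes share. It had 1790.1, 1687 and 1919 normalised counts with TNF-α and 3543, 3499.6 and 3197 with EMO. The lowest EMO library was TNF-α+EMO replicate 3, still well above every TNF-α library (log2 fold change 0.92, SE 0.07, 95% interval 0.77 to 1.08, adjusted p = 3.10e-07). Dld over Dlst within a library was 0.929, 0.876 and 0.985 with TNF-α and 1.47, 1.36 and 1.24 with EMO, a log2 difference of 0.54 with no overlap (exact permutation p = 0.1). The E1 component was not measured under the name Ogdh. A row named LOC103693780, described as a mitochondrial-like 2-oxoglutarate dehydrogenase, went from 543 ± 37.2 to 882 ± 16.03 normalised counts (log2 fold change 0.70, SE 0.08, adjusted p = 1.05e-05). It was picked after its values were seen and is not counted among the cycle genes.

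Suclg1 (ENSRNOG00000005587, chromosome 4, 101180404 to 101210746) encodes the α subunit that both forms of succinyl-CoA ligase use, the GTP form with the β subunit Suclg2 and the ATP form with the β subunit Sucla2. Its normalised counts were 3661, 3489 and 3714 with TNF-α and 7452, 7721 and 7892 with EMO. The groups were widely separated, with a log2 fold change of 1.09 (SE 0.06, 95% interval 0.96 to 1.21, adjusted p = 1.37e-08 in edgeR's quasi-likelihood test). Both β partners were lower. Suclg2 went from 2621 ± 38.1 to 1617 ± 79.6 (log2 fold change -0.70, adjusted p = 1.05e-06) and Sucla2 from 1409.99 ± 33.0 to 1154 ± 40.4 (-0.29, adjusted p = 0.00153). Per kilobase and within a library, Suclg2 over Suclg1 was 0.711, 0.750 and 0.721 with TNF-α and 0.222, 0.218 and 0.194 with EMO, a log2 difference of -1.78. Sucla2 over Suclg1 went from 0.415 ± 0.0158 to 0.160 ± 0.00915, a log2 difference of -1.38. Neither ratio overlapped between the groups (exact permutation p = 0.1 for each).

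Mdh2 (ENSRNOG00000001440, chromosome 12, 23941448 to 23954431), the last step of the cycle, had 2333.5, 2392 and 2611 normalised counts with TNF-α and 3733, 4184 and 4012 with EMO. The groups did not overlap, although the spread within each was wider than for Cs (log2 fold change 0.70, SE 0.07, 95% interval 0.55 to 0.85, adjusted p = 2.61e-06 in edgeR's quasi-likelihood test). Its cytosolic counterpart Mdh1, which works with it in the malate-aspartate shuttle, fell from 3519 ± 126 to 2791 ± 93.3 (log2 fold change -0.33, adjusted p = 3.00e-04). Mdh1 over Mdh2 was 1.58, 1.45 and 1.32 with TNF-α and 0.764, 0.685 and 0.672 with EMO. The larger of the 2 values per kilobase was thus Mdh1 in every TNF-α library and Mdh2 in every EMO library, with a log2 difference of -1.04 (exact permutation p = 0.1). The Mdh2 promoter is the one above that held both the ETS core and the cAMP response element.

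**Figure D2:**
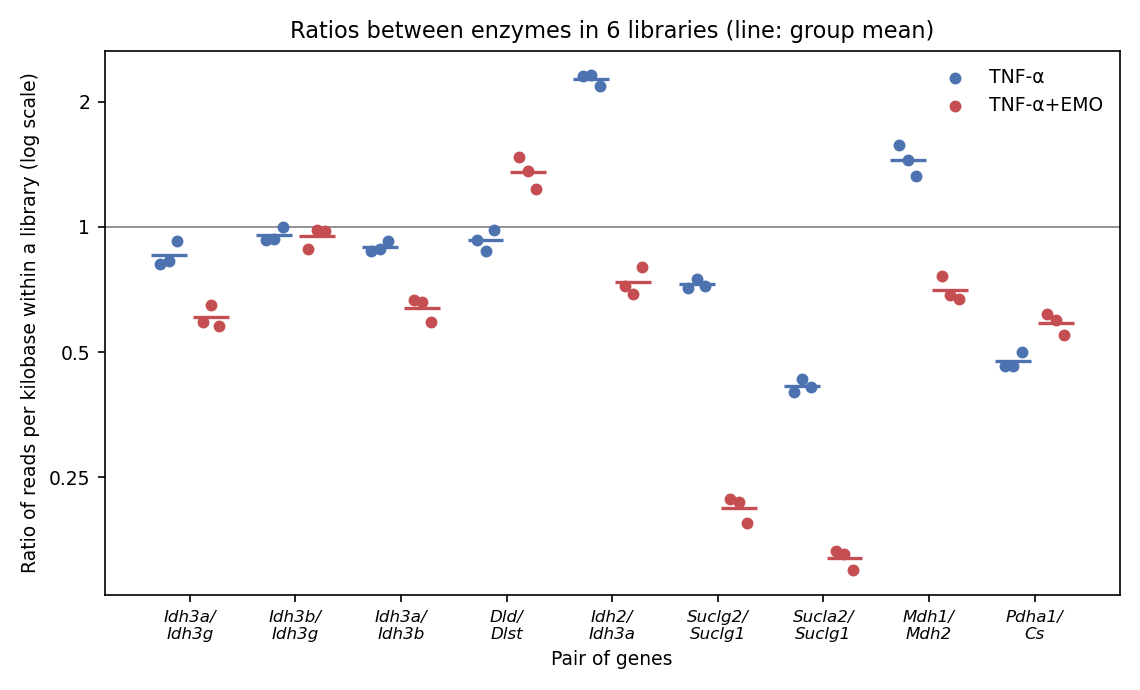
Ratios of reads per kilobase between pairs of enzymes inside each library, on a log axis, for the TNF-α and TNF-α+EMO groups. Points are libraries and short lines the group means. Of the 9 pairs drawn, the groups are apart for 8 and interleave for Idh3b over Idh3g (0.954 against 0.950).

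Levels were compared between genes as RPKM, counts divided by gene length and effective library size. In the TNF-α group the order ran from Mdh2 (108 ± 6.45), Cs (106 ± 1.88) and Suclg1 (94.6 ± 3.06) through Idh3g (60.2 ± 1.61), Idh3b (57.4 ± 1.12) and Idh3a (51.4 ± 2.38) down to Dlst (43.1 ± 0.286) and Dld (40.1 ± 2.59). The libraries of Mdh2 and Cs overlapped, while the lowest Idh3g library and the highest Idh3b library were both at 58.5 and the nearest libraries of Dlst and Dld at 42.9 and 42.8. With EMO the order became Suclg1 (201 ± 5.79), Mdh2 (175 ± 10.1), Cs (155 ± 0.904), Idh3g (82.3 ± 2.31), Idh3b (78.1 ± 4.31), Dld (76.1 ± 4.20), Dlst (56.2 ± 2.27) and Idh3a (49.8 ± 1.58). Here the ranges of Idh3g and Idh3b overlapped, as did those of Idh3b and Dld, and the remaining neighbours were apart. Suclg1 thus moved from rank 3 to rank 1, Dld from 8 to 6, and Idh3a from 6 to 8. The deposited FPKM values, a check chosen after seeing the data, gave the same rank to all 8 genes in both groups. Without TNF-α replicate 3 the first order held for 6 of the 8 genes, and without TNF-α+EMO replicate 3 the second held for 6 of the 8.

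**Figure D3:**
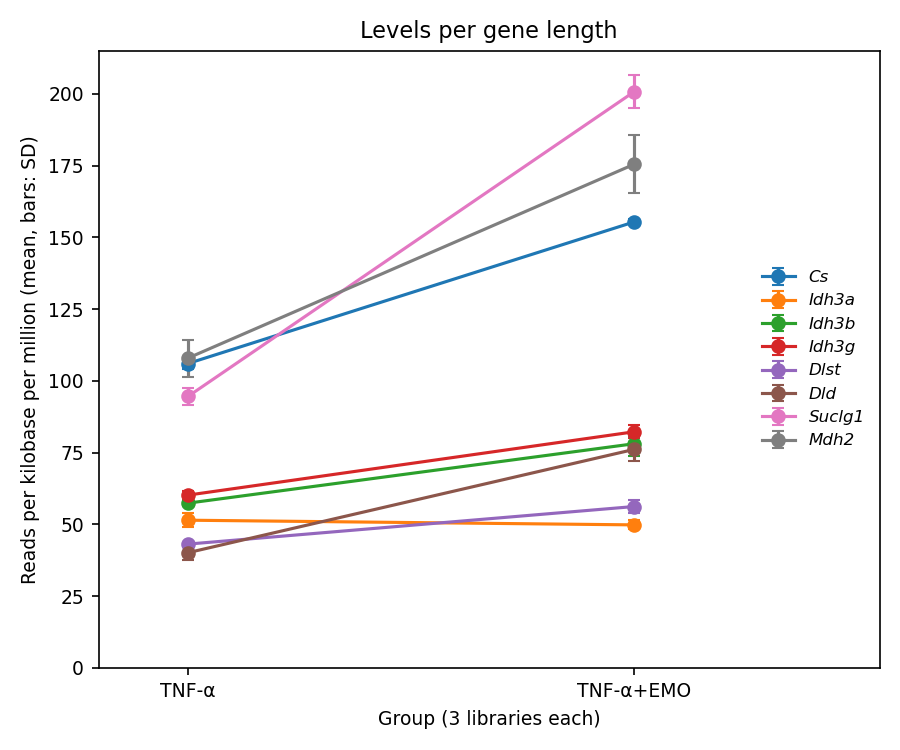
Mean level of each cycle gene in RPKM in the TNF-α and TNF-α+EMO groups (n = 3 each), with bars for the SD and a line for each gene. Suclg1 rises from 94.6 to 201 and Dld from 40.1 to 76.1, whereas Idh3a is at 51.4 and 49.8.

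The other enzymes of the cycle did not share one direction. Of 11 listed, 10 were tested, 3 were higher, 5 lower and 2 not called (median log2 fold change -0.20 against 0.50 for the 8 genes above).
Idh2, the NADP-dependent mitochondrial isocitrate dehydrogenase, had the lowest value, with 3810, 3782 and 3881 normalised counts becoming 1169, 1168.6 and 1278 (log2 fold change -1.67, SE 0.06, adjusted p = 8.88e-10 in edgeR's quasi-likelihood test). Its ratio to Idh3a per kilobase was 2.31, 2.31 and 2.18 with TNF-α and 0.723, 0.690 and 0.801 with EMO, so the larger of the 2 changed between groups.
The subunits of succinate dehydrogenase, the enzyme that is also complex II of the respiratory chain, went different ways. The iron-sulphur subunit Sdhb (log2 fold change 1.56) and the membrane anchor Sdhc (0.41) rose, the flavoprotein Sdha (-0.45) fell, and the other anchor Sdhd was at -0.10 (adjusted p = 0.163). Without TNF-α replicate 2, Sdhd was called lower at -0.20. Fumarase, Fh, fell (-0.51, adjusted p = 6.38e-05), and the 2-oxoglutarate dehydrogenase relative Ogdhl was at 0.15 (adjusted p = 0.0924), called only without TNF-α+EMO replicate 3 (0.18). Dhtkd1, with 3 to 8 counts a library, was not tested.

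**Figure D4:**
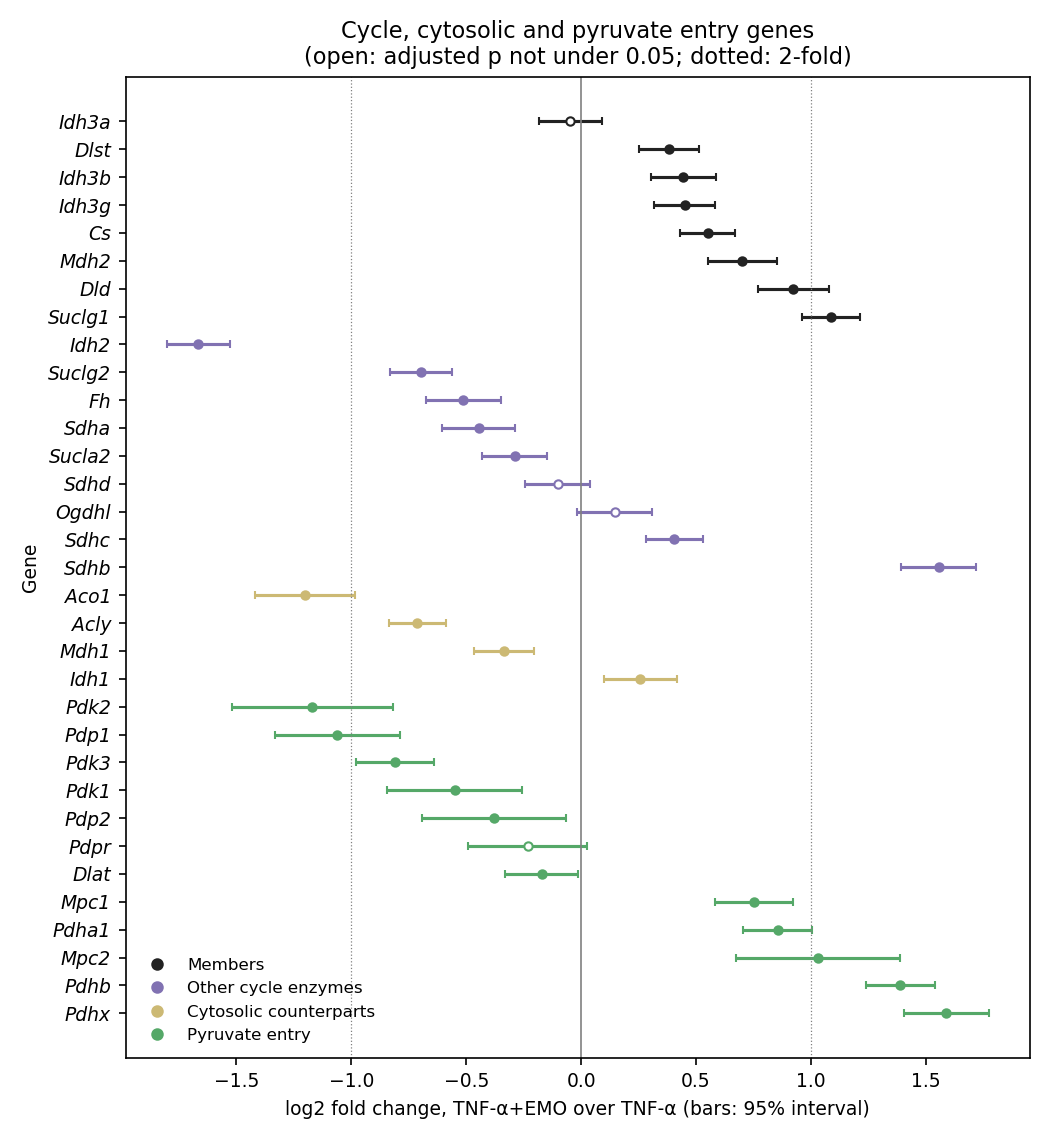
Log2 fold changes (TNF-α+EMO over TNF-α) with 95% intervals for the 8 cycle genes, other enzymes of the cycle, their cytosolic counterparts and the genes of pyruvate entry. Filled points passed an adjusted p of 0.05 and dotted lines mark 2-fold. The 8 cycle genes lie between -0.05 and 1.09, while Idh2 (-1.67) and Pdhx (1.59) are at the ends.

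Among the cytosolic counterparts, 3 of 4 were lower and 1 higher (median log2 fold change -0.52.) Acly, which splits exported citrate for lipid synthesis, fell from 6136 ± 166 to 3742 ± 102 normalised counts (log2 fold change -0.71, adjusted p = 4.02e-07 in edgeR's quasi-likelihood test), and the cytosolic aconitase Aco1 fell by 1.20 on the log2 scale. Idh1, the cytosolic NADP-dependent isocitrate dehydrogenase, was higher (0.26, adjusted p = 0.00669), a call lost without TNF-α replicate 1 (0.13) or TNF-α replicate 2 (0.18).

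Of 13 genes of pyruvate entry, 12 were tested, 5 were higher, 6 lower and 1 not called (median log2 fold change -0.20.) The members that rose import and oxidise pyruvate. They were the carrier subunits Mpc1 (0.75) and Mpc2 (1.03) and, from the pyruvate dehydrogenase complex, Pdha1 (0.86), Pdhb (1.39) and Pdhx (1.59). Pdhx, the E3-binding protein that docks Dld in this complex, went from 349 ± 25.3 to 1050.3 ± 22.8 normalised counts (adjusted p = 1.37e-08 in edgeR's quasi-likelihood test). The kinases that switch the complex off fell, Pdk1 by 0.55, Pdk2 by 1.17 and Pdk3 by 0.81 on the log2 scale, and Pdk4 had 0 counts in every library. The phosphatases that switch it on were also lower, Pdp1 at -1.06 (adjusted p = 1.07e-05) and Pdp2 at -0.38 (adjusted p = 0.0280). The call of Pdp2 was lost without TNF-α+EMO replicate 1 (-0.32) or TNF-α+EMO replicate 3 (-0.30). The E2 core Dlat was at -0.17 (adjusted p = 0.0471), past the threshold in 10 of 15 alternatives and not without TNF-α+EMO replicate 1 (-0.14) or TNF-α+EMO replicate 2 (-0.12). The regulatory subunit Pdpr was at -0.23 (adjusted p = 0.0863), called without TNF-α replicate 3 (-0.36). Pdha1 over Cs per kilobase went from 0.476 ± 0.0213 to 0.588 ± 0.0354, with no overlap (exact permutation p = 0.1).

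Among 16 genes that refill the cycle or carry its intermediates, 14 were tested, 8 were higher and 6 lower (median log2 fold change 0.22.) Leaving out 1 library at a time gave 6 to 8 higher and 5 or 6 lower. The highest was Pck2, the mitochondrial phosphoenolpyruvate carboxykinase that draws on oxaloacetate, which went from 1162 ± 20.8 to 5110.1 ± 240 normalised counts (log2 fold change 2.14, adjusted p = 1.33e-10 in edgeR's quasi-likelihood test). The lowest was the dicarboxylate carrier Slc25a10, from 2005 ± 122 to 184 ± 20.4 (-3.45, adjusted p = 1.09e-10). The further genes of this list are named after their values were seen. Glud1, the glutamate dehydrogenase that makes 2-oxoglutarate, was lower at -1.51 (adjusted p = 8.29e-10). Pyruvate carboxylase, Pc, which makes oxaloacetate, was higher at 0.35 (adjusted p = 2.09e-04). For the shuttle between Mdh1 and Mdh2, the aminotransferases Got1 (0.45) and Got2 (0.28) and the carrier Slc25a11 (0.50) were higher, and the carrier Slc25a12 was lower at -1.72. The related carrier Slc25a13 was at -0.24 (adjusted p = 0.0289), a call lost without TNF-α+EMO replicate 2 (-0.15). Slc25a22 had 0 counts in every library.

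Dlst and Dld share their lipoyl arm chemistry with sister complexes. Of 12 genes for lipoylation and these complexes, 6 were higher, 3 lower and 3 not called (median log2 fold change 0.18.) Leaving out 1 library at a time gave 4 to 6 higher and 3 to 5 lower, the 5 lower without TNF-α replicate 2. Nfu1, which delivers iron-sulphur clusters to lipoate synthase, went from 1501 ± 55.1 to 5322 ± 421 normalised counts (log2 fold change 1.83, adjusted p = 1.33e-09 in edgeR's quasi-likelihood test), and lipoate synthase itself, Lias, named after its value was seen, rose 1.83-fold. Lipt1, which passes lipoate on to the E2 subunits, was lower with 51, 32 and 46 counts becoming 13, 6 and 11 (-2.02, adjusted p = 3.46e-04). The branched-chain E1 subunits, also named after their values were seen, split, Bckdha at 1.31 and Bckdhb at -1.44 (adjusted p = 3.45e-08).

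On the side branches of the cycle, all 4 listed genes were lower. With any 1 TNF-α library left out the count was 3, since Acod1 then had 10 counts in too few libraries to be tested. Acod1 makes itaconate from cis-aconitate in activated macrophages. Its counts were 662, 571 and 654 with TNF-α and 0 in each library with EMO. Against a limit of 3 counts per library, that is at least 199.9-fold lower. Aldh5a1, which turns succinate semialdehyde into succinate, went from 462 ± 51.5 to 37.6 ± 2.81 normalised counts (log2 fold change -3.62, adjusted p = 1.54e-09 in edgeR's quasi-likelihood test). D2hgdh, a dehydrogenase that makes 2-oxoglutarate, was the least changed of the list at -0.98 (adjusted p = 1.43e-06). Of the succinate dehydrogenase assembly factors, Sdhaf2 (0.92) and Sdhaf3 (1.01) were higher and Sdhaf4 was at -0.34 (adjusted p = 0.0232), a call lost without TNF-α+EMO replicate 2 (-0.27). Sdhaf1 had 0 counts in every library.

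**Figure D5:**
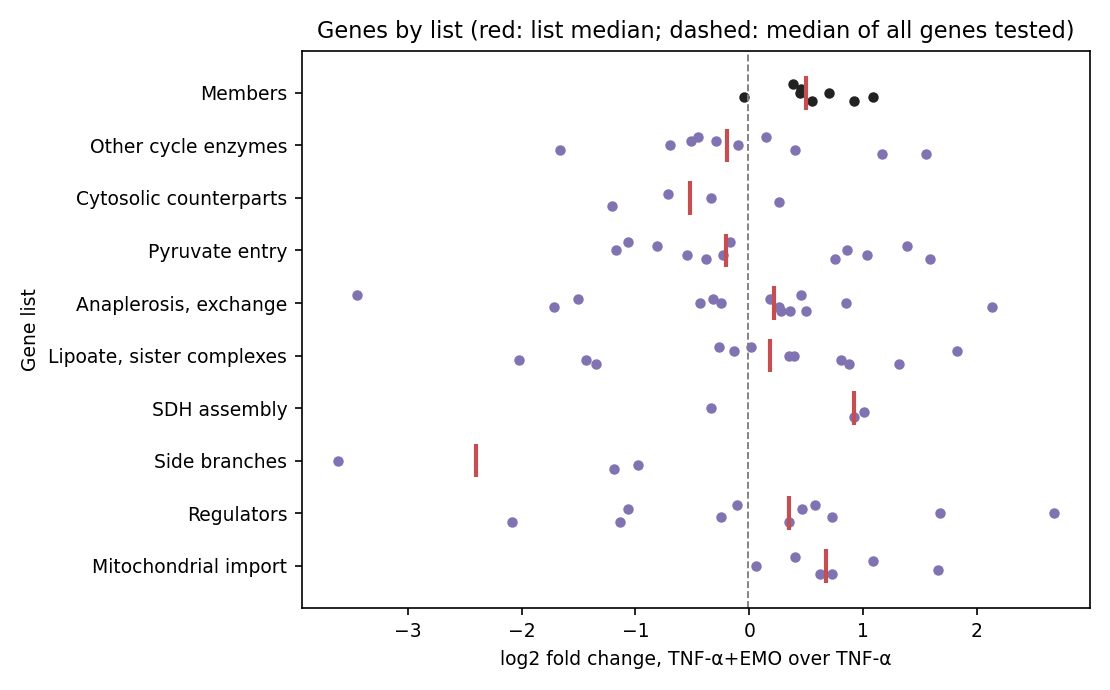
Log2 fold change (TNF-α+EMO over TNF-α) of every tested gene in the cycle and the lists around it, 1 row a list, with the list median as a red line and the median of all genes tested as a dashed line. Acod1, at 0 counts with EMO, is not drawn but counts in its list's median (-2.40, the same at its bound). The 8 cycle genes have a median of 0.50. All side branch genes lie below 0 and all mitochondrial import genes above it (median 0.67), and the other lists spread to both sides of 0.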

How the data were processed

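RNA-seq libraries of rat RA-FLS were compared between 3 TNF-α and 3 TNF-α+EMO samples, grouped by the sample labels. Per the labels and the submitters' processing notes, reads were checked with FastQC, trimmed with Trimmomatic and aligned with HISAT2 to Rnor_6.0. The counter, annotation version and use of strand are not given in the sources used here, so antisense reads cannot be told apart. The authors deposited raw counts per gene, FPKM values per library, gene lengths and columns of their own comparison (group means, fold changes, p-values), which were not used. The gene length deposited by the authors is an annotation value in bases. The 1306 rows with no gene name (0.844% of counts) were kept in the fit. Those that passed the filter count among the genes tested. They were left out only of the search for the genes closest to the mean profile.

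Genes with at least 10 counts in 3 libraries (13614) were tested with edgeR 4.0.16 in R 4.3.3 (TMM scaling, robust quasi-likelihood test), with all 6 libraries, no covariate and Benjamini-Hochberg adjustment over all genes tested. The common biological coefficient of variation was 0.121. Standard errors were derived from the F statistic. A call is an adjusted p under 0.05. The test was run on simulated counts of 13158 genes, with this common variation for every gene. It recovered 37.7% of 61 genes changed by 0.5 on the log2 scale. For a change of 1 it recovered 87.7% of 65 genes, and for a change of 2 100% of 66. Of its calls, 4.58% were false. Far fewer genes were changed there than were called in these data, so the run does not cover shifts of this extent. Ratios were compared with two-sided exact permutation tests. Of 13 planned ratios, 10 were computed, since 3 needed Ogdh.

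The cycle genes and all lists were chosen with earlier results of these data known. The genes named are the cycle genes, the tested genes of the other cycle, cytosolic and pyruvate lists, the highest and lowest called gene of each further list, genes at 0 counts, and the 5 genes closest to the mean profile. A few genes of the lists count in their totals but are not reported here by name. Other names in the further lists were chosen after their values were seen. Alternatives used limma 3.58.1 (voom), DESeq2 1.42.0, other scalings and filters, a replicate block and each library left out.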

Additional observations from a re-analysis of the deposited data

How the results depend on the processing

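The 7 cycle genes called higher were higher and past the threshold in 15 of 15 alternatives. Idh3a, between -0.16 and -0.01 on the log2 scale, was called in 1, which gives 1 cycle gene lower with library totals only. At an absolute log2 fold change over 2, 0 cycle genes were called higher. Over 1, the count of 1 became 0 with library totals only, and 0 to 1 with 1 library left out. Of 97 listed genes tested, 18 changed call or sign under some alternative.

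With library totals only, the cytosolic counterparts had 0 higher, and the lipoate list had 5 lower, as with upper quartile scaling. Without a filter on low counts, lower calls became 1 for macrophage, 2 for epithelial and 2 for chondrocyte markers, with 1 chondrocyte marker higher. At 100 counts or more, 1 macrophage marker was higher and 0 endothelial markers lower. Leaving out 1 library gave 0 to 1 cytosolic counterparts higher, 3 to 5 lipoate genes lower, 0 to 1 assembly factors lower, 1 to 2 macrophage markers higher, and 0 to 1 endothelial and 0 to 1 chondrocyte markers lower. The cause was not tested.

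The sign turned for Gcsh (0.01), to -0.0285 with upper quartile scaling, -0.10 with library totals and -0.0208 at 100 counts or more, and between -0.106 and 0.0417 with 1 library left out. Vdac1 (0.06) was at -0.0519 with library totals and between -0.0305 and 0.11 with 1 library left out. Idh3b over Idh3g (-0.01) became 0.0415 without TNF-α+EMO replicate 1 and 0.0268 without TNF-α replicate 3, and lay between -0.0328 and 0.0415 with 1 library left out. The replicate numbers are shared by the groups. The deviations of same-numbered libraries from their group means correlated at 0.009, -0.007 and 0.080. Differently numbered libraries gave -0.085 to 0.080. No pairing was seen, though 3 libraries a group cannot exclude one. With the replicate block, 7 cycle genes were higher and 0 lower, and 10806 genes were called in place of 11008. Genes under 10 counts in 3 libraries, such as Dhtkd1 and Thy1, could not be compared at this depth.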

Other observations

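Genes that regulate mitochondria were not in the comparisons above. Of 12 listed, 11 were tested, 6 were higher and 4 lower with EMO (median log2 fold change 0.35). The matrix protease Lonp1 was highest, with 2685, 2698 and 2734 counts with TNF-α and 15617, 16241 and 17638 with EMO (log2 fold change 2.68, adjusted p = 3.00e-11 in edgeR's quasi-likelihood test). The coactivator Ppargc1b was lowest (-2.08) from 26 to 28 counts a library, and Ppargc1a had at most 1 count in any library. Of the genes named after their values were seen, the nuclear receptor Esrra was higher (1.67), with 4659 counts in TNF-α+EMO replicate 3 against 2750 and 2953 in the other libraries of that group. Gabpa, whose ETS domain binds the ETS core, was at -0.11 (adjusted p = 0.263), and its partner Gabpb1, which does not itself bind DNA, at -1.14 (adjusted p = 2.46e-06). The calcium uniporter Mcu fell by 1.07 on the log2 scale, and its gatekeeper Micu2 (0.35) rose. Of 6 genes for import and the mitochondrial membranes, 5 were higher, from the prohibitin Phb (0.40) to the import pore Tomm40 (1.66), and Vdac1 was at 0.06 (adjusted p = 0.349).

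The genes whose values over the 6 libraries lay closest to the mean profile of the cycle genes, by root mean square distance of centred log2 values among 9996 genes, were Letm1 (0.0197), Ndufa9 (0.0234), Vps29 (0.0253), Rpsa (0.0288) and Dusp18 (0.0291). Their log2 fold changes were between 0.53 and 0.58, and 543 genes lay within 0.1.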
